A study of Homo sapiens with 31 samples.

Results

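The integrins and laminins are the receptors and the ligands of cell attachment to the basement membrane. Members were chosen by gene symbol alone: every integrin alpha chain (ITGA followed by a number, 2B, D, E, L, M, V or X), every integrin beta chain (ITGB followed by a digit) and every laminin alpha, beta or gamma chain (LAMA, LAMB or LAMC followed by a digit). The table held 38 such genes of 17113, of which 26 were integrins (18 alpha and 8 beta chains) and 12 were laminins (5 alpha, 4 beta and 3 gamma chains). The rule used no measured value, but the family was chosen with earlier results of these data known.

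An integrin is a pair of 1 alpha and 1 beta chain in the cell membrane, and the pairing decides what it binds: collagen, fibronectin, laminin, or ligands that carry an arginine-glycine-aspartate motif. A laminin is a cross-shaped secreted protein of 1 alpha, 1 beta and 1 gamma chain. In gut epithelium, laminin-332 (with the chains encoded by LAMA3 and LAMB3) and laminin-511 (LAMA5, LAMB1 and LAMC1) lie beneath the cells, and integrin alpha6beta4 (ITGA6 and ITGB4) is the receptor that anchors epithelial cells to laminin-332 through hemidesmosomes. Fibroblasts attach mainly through collagen and fibronectin receptors that contain the beta1 chain (ITGB1).

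The RNA came from 5 human cell lines of the large intestine, given no treatment and kept in RPMI or DMEM medium with serum (which line had which medium is not in the labels). LoVo, LS1034, HT-29 and HCT 116 are lines of colorectal cancer, labelled adenocarcinoma (LS1034 from the cecum, the others from the colon), and CCD 841 CoN is a colon line labelled normal. Each line was sequenced unmixed in 3 libraries, and RNA of each cancer line was also mixed with RNA of CCD 841 CoN at 0.1%, 1%, 10% and 50%, in 1 library for each line and percentage (16 mixtures). The series was built to estimate, by computation, the share and the profile of cancer RNA in such mixtures. Whether the 3 libraries of each line are separate cultures is not in the labels, so p-values between unmixed lines measure only their spread, which may be technical.

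The libraries held 9688765 to 56741879 counts, and levels are given as CPM, the counts scaled to a common library total. Because gene length was not taken into account, each gene was compared only with itself. CCD 841 CoN was low in the markers of gut epithelium: the summed level of 10 epithelial genes was 239.6 to 315 CPM in its 3 libraries, with KRT20 and VIL1 at 0 counts, and 7310 to 12638 CPM in LoVo, 11686 to 15996 in LS1034, 15494 to 25462 in HT-29 and 3227 to 6161 in HCT 116. Most of the CCD 841 CoN sum was KRT18 (mean 232 CPM), with KRT19 at 41.5 CPM and KRT8 at 11.2 CPM. The 10 fibroblast genes summed to 25360 to 29827 CPM in CCD 841 CoN, against 28.6 to 557 CPM over the cancer libraries. Of these, S100A4 went the other way, at a mean of 62.3 CPM against 183 to 341 CPM in LS1034, HT-29 and HCT 116. The 5 smooth muscle genes summed to 1795 to 2120 CPM in CCD 841 CoN, against 15.8 to 122 CPM over the cancer libraries. ACTG2 and CNN1 were high there (means 1582 and 156 CPM), and DES and MYH11 were low (0.0286 and 0.592 CPM). Cancer origin and cell type therefore cannot be told apart in the comparisons with CCD 841 CoN, which also rest on a single normal line. Less RNA from every cell and fewer cells that express a gene cannot be told apart either. Among the CCD 841 CoN libraries, library 1 gave a chi-square of 30.98 and 29.3 per gene with libraries 2 and 3, which gave 5.06 with each other. Pairs of libraries within each cancer line gave 68.48 to 300.7 per gene. Library 1 of CCD 841 CoN also held more counts, 24640112 against 11664065 and 9688765 in libraries 2 and 3. Such a chi-square rises with the number of counts, so it is no common scale for pairs of unequal depth. All 3 libraries were kept, and counts without library 1 are given beside the results.

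Of the 38 members, 36 had enough counts to be tested in the unmixed libraries, and ITGAD and ITGAL did not. A gene was called when its adjusted p was below 0.05 and its fitted log2 difference was at least 1 in size. Folds given below are ratios of mean CPM. The fitted log2 differences use another scaling. Over the 4 lines they also average the lines on the log scale, so a fold and its log2 difference need not match. Between the 4 cancer lines, weighted equally, and CCD 841 CoN, 13 members were higher, 18 were lower and 5 were not called. Over the 14452 genes tested, 24.8% were higher and 22.3% were lower. The median log2 difference was -0.98 over the tested members and 0.22 over all genes tested. The integrins split into 9 higher, 13 lower and 2 not called, and the laminins into 4 higher, 5 lower and 3 not called. Without CCD 841 CoN library 1, 29 members were called in place of 31.

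**Figure D1:**
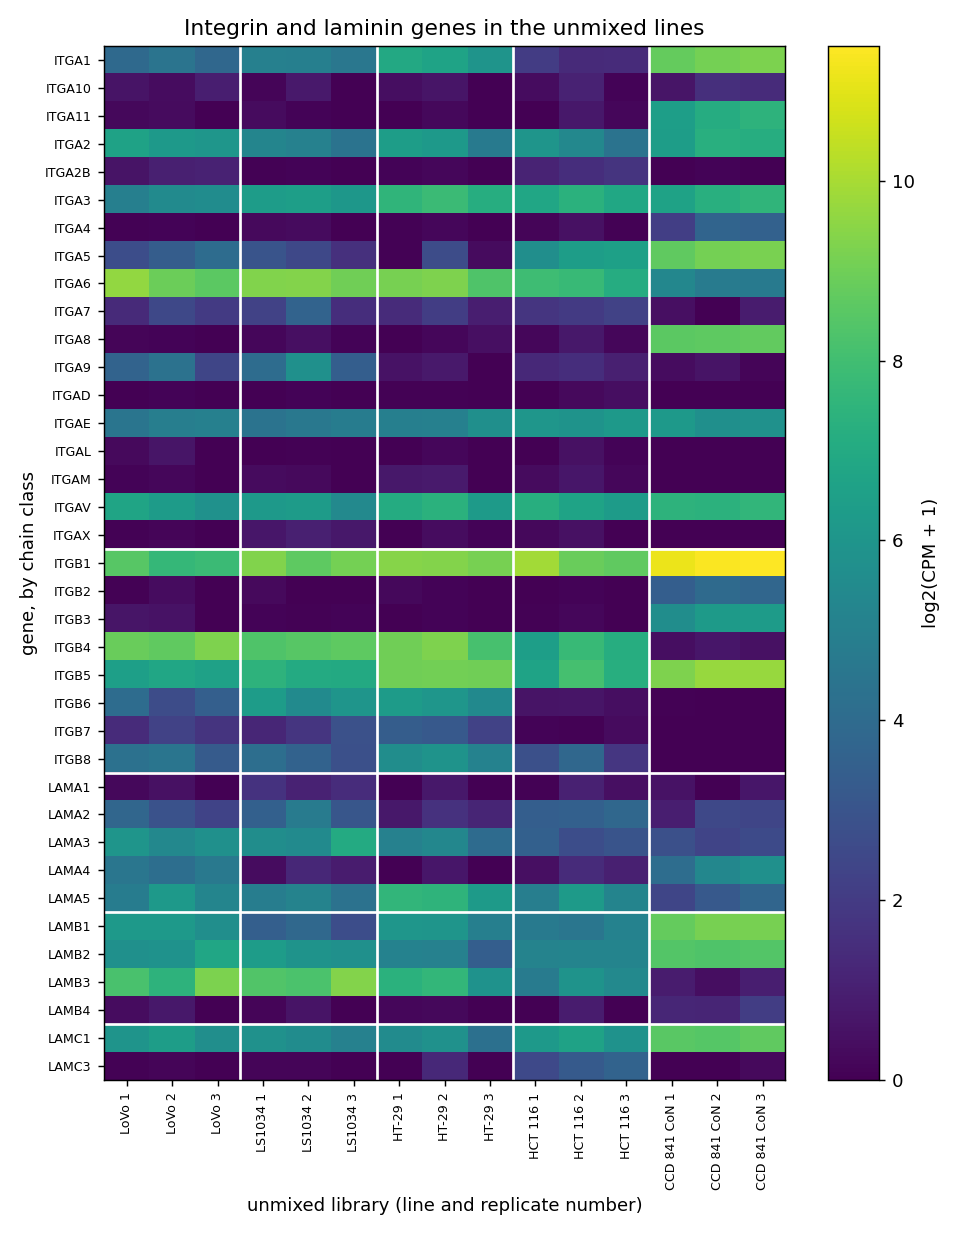
Level of 37 of the genes (rows, by chain class) in the 15 unmixed libraries (columns, 3 per line), as log2(CPM + 1). Rows should be read along, not against each other: ITGB4 and LAMB3 are near 0 in the 3 CCD 841 CoN columns and high in the cancer columns, while ITGA8, ITGA11 and ITGB3 are high in CCD 841 CoN alone.

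The 4 lines were also tested one by one, always against the same 3 CCD 841 CoN libraries, so these comparisons share their control. In LoVo, 12 members were higher and 15 lower (26.5% and 21.6% of all genes tested). LS1034 had 13 higher and 17 lower members (25.7% and 21.4%). In HT-29 there were 10 higher and 14 lower (24.7% and 20.9%), and in HCT 116 12 higher and 15 lower (25.4% and 21.2%). Without CCD 841 CoN library 1 the totals called were 27, 28, 23 and 24, against 27, 30, 24 and 27 with it.

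**Figure D2:**
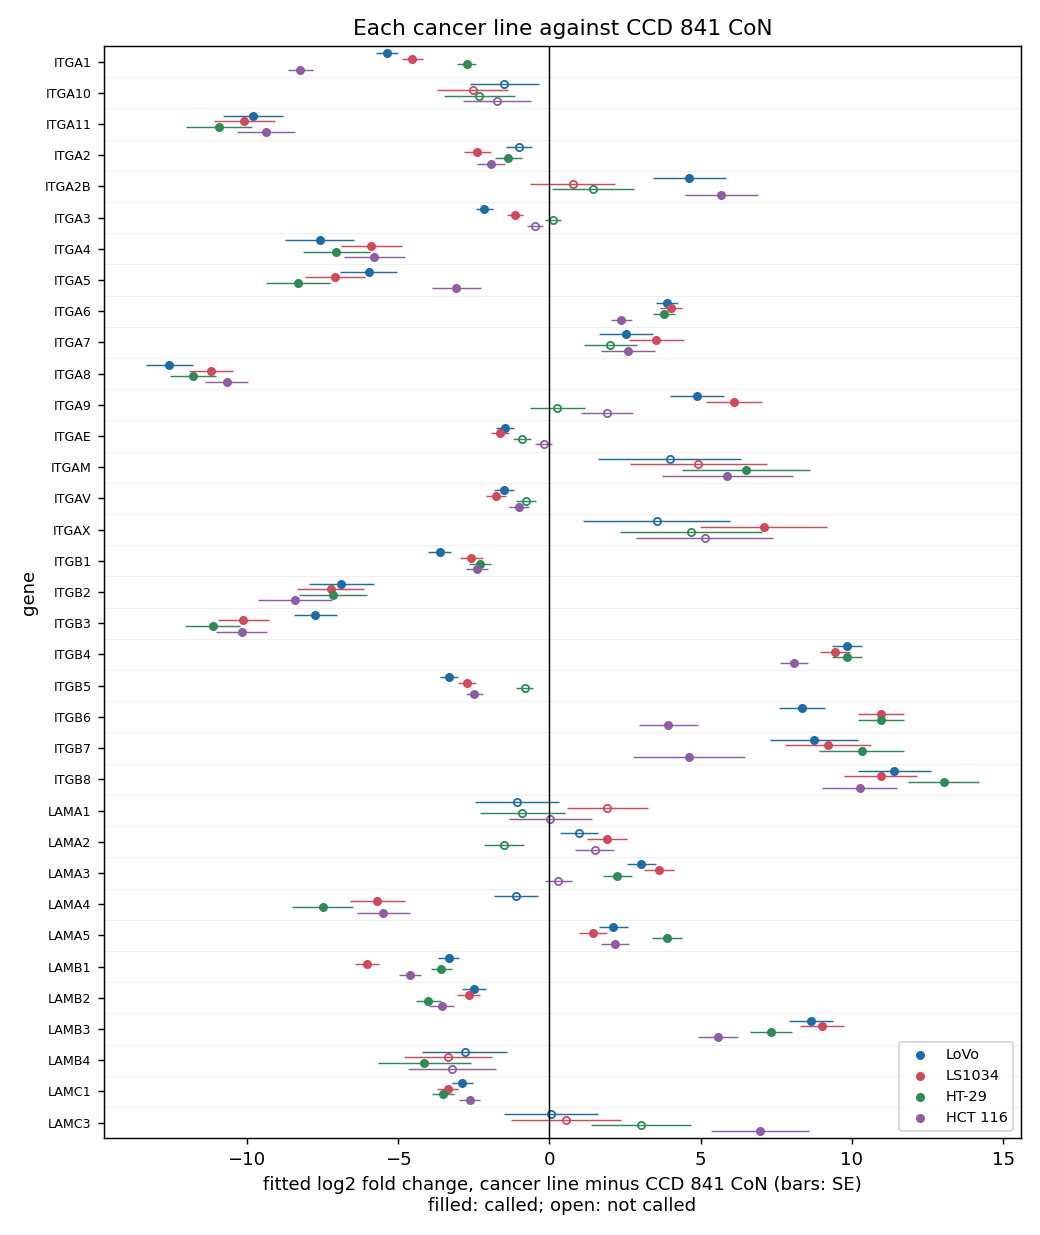
Fitted log2 difference of each cancer line from CCD 841 CoN for 35 tested genes, with the SE as a bar. Filled points were called and open points were not; the laminin-332 chain LAMB3 lies between 5.58 and 8.999, and the collagen receptor chain ITGA11 between -10.91 and -9.37.

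LAMB3 and LAMA3, chains of laminin-332, were higher in the cancer lines than in CCD 841 CoN, with HCT 116 the exception for LAMA3. LAMB3, the beta chain found in this laminin, measured 293, 169.5 and 595 CPM in LoVo, 333.5, 300.4 and 662 in LS1034, 161, 192 and 57.6 in HT-29, 26.9, 59.1 and 41.8 in HCT 116, and 0.812, 0.343 and 0.929 in CCD 841 CoN. No cancer library came near the CCD 841 CoN libraries, and the mean over the 4 lines was 347-fold higher (log2 difference 7.64, SE 0.67, adjusted p = 6.12e-08). LAMA3, the alpha chain, measured 62.3, 40.03 and 53.3 CPM in LoVo, 48.99, 43.7 and 129 in LS1034, 31.9, 39.3 and 15.5 in HT-29, 10.4, 5.58 and 6.94 in HCT 116, and 5.93, 4.201 and 4.95 in CCD 841 CoN. LoVo, LS1034 and HT-29 did not overlap with CCD 841 CoN and were called, with log2 differences of 3.04, 3.62 and 2.25 (adjusted p = 6.98e-05, 1.46e-05 and 0.000836). The HCT 116 libraries overlapped with those of CCD 841 CoN (log2 difference 0.30, SE 0.46, adjusted p = 0.596).

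**Figure D3:**
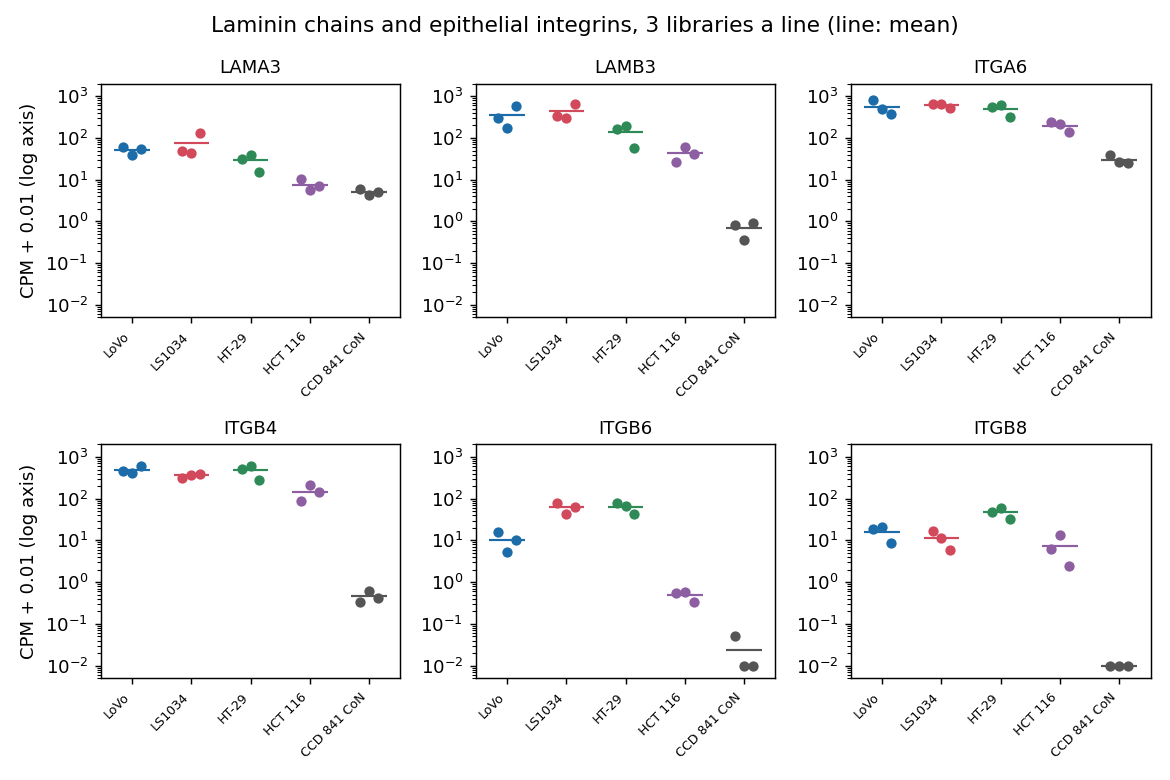
CPM plus 0.01 on a log axis for the laminin chains LAMA3 and LAMB3 and for ITGA6, ITGB4, ITGB6 and ITGB8 in each unmixed library, with 3 points and a mean line for each of the 5 lines. HCT 116 has the lowest mean of the 4 cancer lines in every panel, and its LAMA3 points (5.58 to 10.4 CPM) overlap those of CCD 841 CoN (4.20 to 5.93 CPM).

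The bases before the start sites of LAMA3 and LAMB3, chains of laminin-332, and of ITGA6, a chain of its receptor alpha6beta4, are shown to give the sequence in front of the genes compared here. The table of promoters held windows for 26 of the 38 members (33 windows, since some have more than 1 start) from RefSeq on GRCh38.p14, a later build than the hg19 to which the reads were aligned. The 250 bases before each start are printed 5′ to 3′ on the gene's strand in lower case, and capitals mark a match on either strand to TGANTCA (the AP-1 motif, bound by Fos and Jun proteins), CACCTG (an E-box bound by SNAI and ZEB repressors), GGGCGG (the GC box of Sp factors) or TATAAA (the TATA box). ITGB4 had no entry.
LAMA3, chr18:23872770-23873019, plus strand: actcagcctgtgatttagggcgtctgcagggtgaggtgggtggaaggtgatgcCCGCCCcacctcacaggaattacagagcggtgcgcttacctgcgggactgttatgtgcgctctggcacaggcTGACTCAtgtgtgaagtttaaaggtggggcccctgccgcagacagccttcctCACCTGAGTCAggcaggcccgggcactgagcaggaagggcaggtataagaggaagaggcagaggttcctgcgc
LAMB3 start 3, chr1:209651375-209651624, minus strand: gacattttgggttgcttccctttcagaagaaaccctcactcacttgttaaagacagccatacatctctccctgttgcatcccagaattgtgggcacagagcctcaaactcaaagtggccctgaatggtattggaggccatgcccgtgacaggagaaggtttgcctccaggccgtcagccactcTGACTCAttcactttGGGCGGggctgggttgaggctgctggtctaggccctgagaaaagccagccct
ITGA6 start 1, chr2:172427086-172427335, plus strand: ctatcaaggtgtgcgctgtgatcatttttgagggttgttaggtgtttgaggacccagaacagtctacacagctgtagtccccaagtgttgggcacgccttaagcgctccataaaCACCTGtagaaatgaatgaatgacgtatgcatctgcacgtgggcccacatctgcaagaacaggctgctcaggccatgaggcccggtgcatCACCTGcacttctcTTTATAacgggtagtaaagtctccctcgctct

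The LAMA3 window held 2 AP-1 matches, whose first bases lay 125 and 69 bases before the start, and an E-box match at 73 that overlaps the nearer of them. It also held a GC box at 197. In the LAMB3 window there was 1 AP-1 match at 67 and 1 GC box at 52 bases before the start, and the other 2 LAMB3 windows had no AP-1 match. LAMB3 start 3 was picked for printing because of that match, after the matches were seen. LAMB3 start 1 had an E-box at 218 and a GC box at 88, and LAMB3 start 2 a GC box at 184. The ITGA6 window held 2 E-box matches, at 136 and 46, and a TATA box at 32, and its second window held 3 GC boxes. Over the 35116 windows of the table, 6.57% had the AP-1 letters, 17.5% the E-box, 42.6% the GC box and 10.7% the TATA box. Among the 33 member windows, 2 had AP-1 (the LAMA3 and LAMB3 windows above), 8 the E-box, 17 the GC box and 2 the TATA box. These are letter matches and no measure of binding, and their part in the levels was not tested.

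The chains of the laminin-332 receptor alpha6beta4 were higher in the cancer lines as well. ITGB4, which occurs in no integrin other than alpha6beta4, measured 473, 409 and 609.9 CPM in LoVo, 321, 365 and 397.5 in LS1034, 521, 622 and 286 in HT-29, 86.6, 214.5 and 144 in HCT 116, and 0.325, 0.600 and 0.413 in CCD 841 CoN. Every cancer library lay above every CCD 841 CoN library, where the level was at most 0.6 CPM, and the mean was 831-fold higher (log2 difference 9.30, SE 0.47, adjusted p = 8.23e-11). ITGA6, which pairs with beta4 or beta1, measured 799, 489 and 385 CPM in LoVo, 647, 654 and 519 in LS1034, 558, 621 and 325 in HT-29, 240.2, 213 and 138 in HCT 116, and 39.1, 26.8 and 25.1 in CCD 841 CoN. It was present in all 5 lines, and the cancer lines were higher by 15.4-fold on average (log2 difference 3.52, SE 0.33, adjusted p = 1.29e-07), with HCT 116 the lowest of the 4.

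ITGA3, the alpha chain of the other epithelial receptor for laminin-332 and laminin-511, did not follow ITGA6. It measured 30.01, 45.1 and 47.7 CPM in LoVo, 81.1, 87.3 and 67.5 in LS1034, 184, 229 and 144 in HT-29, 110.0, 160.3 and 115 in HCT 116, and 96.6, 153.5 and 181 in CCD 841 CoN. LoVo was lower than CCD 841 CoN without overlap (log2 difference -2.15, SE 0.27, adjusted p = 6.42e-06), and so was LS1034 (log2 difference -1.15, SE 0.26, adjusted p = 0.00165). The LS1034 call ended without CCD 841 CoN library 3 (log2 difference -0.96) and with scaling by library size (-0.87). HT-29 and HCT 116 overlapped with CCD 841 CoN and were not called. Over the 4 lines the log2 difference of ITGA3 was -0.91, short of the size required, and it passed without CCD 841 CoN library 1 (-1.12), LS1034 library 2 (-1.003), HT-29 library 2 (-1.02) or HCT 116 library 2 (-1.03) and with DESeq2 or its size factors (-1.07 with each).

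A further 3 beta chains were near or at 0 in CCD 841 CoN. ITGB6, which pairs with alphaV and can release active TGF-beta, measured 15.7, 5.31 and 10.3 CPM in LoVo, 80.7, 43.8 and 63.5 in LS1034, 78.2, 65.6 and 42.4 in HT-29, 0.545, 0.582 and 0.324 in HCT 116, and 0.0406, 0 and 0 in CCD 841 CoN. CCD 841 CoN held 1 ITGB6 count in all, so the 1589.6-fold ratio of the 4 lines has a 95% counting interval of 285 to 62790. HCT 116 was the low line, at 22.6 times CCD 841 CoN with an interval of 3.82 to 917. ITGB8, another partner of alphaV, had no count in CCD 841 CoN and measured 18.7, 21.04 and 8.77 CPM in LoVo, 16.8, 11.2 and 6.05 in LS1034, 48.4, 59.9 and 32.8 in HT-29, and 6.09, 13.3 and 2.498 in HCT 116. Set against 3 counts over the 3 CCD 841 CoN libraries, the cancer mean was at least 314-fold higher (adjusted p = 8.52e-07). ITGB7, known from gut-homing lymphocytes, also had no count there, and the bound was at least 50.8-fold over the 4 lines (adjusted p = 0.000163). It measured 1.66, 3.78 and 2.31 CPM in LoVo, 1.37, 2.37 and 6.27 in LS1034, 9.502, 8.26 and 3.796 in HT-29, and 0.0908, 0.0485 and 0.278 in HCT 116. HT-29 was highest for both genes, and HCT 116 held only 0.0485 to 0.278 CPM of ITGB7. That single call (adjusted p = 0.0492) was lost with the replicate block (adjusted p = 0.0649), with DESeq2 (0.0789) or its size factors (0.0599), without the low-count filter (0.0564) and without either HCT 116 library 1 or 3 or any 1 CCD 841 CoN library (0.0587 to 0.146).

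Laminin-511 was split between its chains. LAMA5, the alpha chain made by epithelia, measured 27.5, 74.8 and 36.3 CPM in LoVo, 28.3, 34.8 and 19.2 in LS1034, 186, 175.5 and 76.1 in HT-29, 29.2, 76.2 and 35.3 in HCT 116, and 4.302, 8.32 and 12.5 in CCD 841 CoN. HT-29 held the highest values, and no cancer library overlapped with CCD 841 CoN. The 4 lines were 7.96-fold higher (log2 difference 2.41, SE 0.42, adjusted p = 0.000136), and the LS1034 call (adjusted p = 0.0147) was lost without LS1034 library 2 (0.0721) or CCD 841 CoN library 1 (0.0737). LAMB1, its beta chain, measured 74.00, 73.4 and 50.5 CPM in LoVo, 10.1, 13.8 and 5.67 in LS1034, 65.3, 62.2 and 30.3 in HT-29, 24.8, 21.9 and 33.2 in HCT 116, and 446, 556 and 571.5 in CCD 841 CoN. The direction was the opposite of LAMA5, with CCD 841 CoN above every cancer library by 13.5-fold on average (log2 difference -4.38, SE 0.22, adjusted p = 5.96e-11). LAMC1, the gamma chain of most laminins, measured 61.5, 83.6 and 49.8 CPM in LoVo, 55.1, 46.9 and 32.3 in LS1034, 46.2, 55.3 and 17.7 in HT-29, 74.3, 97.4 and 57.4 in HCT 116, and 371.5, 354 and 408 in CCD 841 CoN. It too was lower in every cancer library, by 6.69-fold (log2 difference -3.09, SE 0.22, adjusted p = 4.95e-09). LAMB2, the beta chain of laminins of muscle, kidney and vessels, measured 54.4, 58.1 and 111 CPM in LoVo, 81.9, 58.3 and 52.9 in LS1034, 33.8, 31.96 and 9.91 in HT-29, 34.5, 35.6 and 35.9 in HCT 116, and 339, 327 and 340.0 in CCD 841 CoN, so that the cancer lines were 6.73-fold lower (log2 difference -3.17, SE 0.25, adjusted p = 1.55e-08).

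The remaining alpha chains differed line by line. LAMA4, a chain of mesenchymal and vascular laminins, measured 21.6, 17.02 and 24.2 CPM in LoVo, 0.321, 1.46 and 0.821 in LS1034, 0, 0.642 and 0 in HT-29, 0.394, 1.699 and 1.02 in HCT 116, and 16.3, 38.9 and 53.9 in CCD 841 CoN. LoVo overlapped with CCD 841 CoN and was not called (log2 difference -1.10, SE 0.73, adjusted p = 0.211), while LS1034, HT-29 and HCT 116 were lower by 41.96-fold, 170.0-fold and 35.1-fold. LAMA2, the muscle laminin chain, measured 12.96, 6.52 and 3.91 CPM in LoVo, 10.4, 26.7 and 7.39 in LS1034, 0.696, 2.09 and 1.296 in HT-29, 9.72, 10.5 and 13.3 in HCT 116, and 0.933, 4.54 and 4.33 in CCD 841 CoN. LS1034 was called higher (log2 difference 1.91, SE 0.65, adjusted p = 0.021), and that call was lost without LS1034 library 2 (adjusted p = 0.174) or CCD 841 CoN library 1 (0.0843). HCT 116 was not called (log2 difference 1.495, SE 0.64, adjusted p = 0.0612), but was with the replicate block (1.61, adjusted p = 0.0411), with scaling by library size (0.0297) and with only the compared groups (0.0481), and HT-29 was called lower with DESeq2 (-1.66, adjusted p = 0.0255). LAMC3, a gamma chain of brain and other tissues, was found in HCT 116 at 4.87, 8.54 and 11.5 CPM. It had 2 counts in all of CCD 841 CoN, and the HCT 116 ratio was 179-fold with a 95% counting interval of 49.3 to 1480.0 (adjusted p = 0.00191). LAMA1, the chain of embryonic laminin-111, stayed under 2.3 CPM in every unmixed library and was not called. LAMB4 stayed under 3.3 CPM. It was called lower over the 4 lines (log2 difference -3.37, SE 0.93, adjusted p = 0.00556) and, of the single lines, in HT-29, where leaving out any 1 of the 3 HT-29 or the 3 CCD 841 CoN libraries ended the call (adjusted p 0.0514 to 0.0984). LoVo, LS1034 and HCT 116 were called lower for LAMB4 with the replicate block (adjusted p = 0.0291, 0.0138 and 0.0119) and in a fit restricted to the 2 lines compared (0.0156, 0.00921 and 0.0421).

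Of the integrins of collagen and fibronectin attachment, ITGB1, ITGA1, ITGA2, ITGA11, ITGA5 and ITGA4 were called lower over the 4 cancer lines, and ITGA2 was not called in LoVo taken singly. ITGB1, the common beta chain of collagen, fibronectin and laminin receptors, measured 362, 201.5 and 231 CPM in LoVo, 646, 402 and 551 in LS1034, 685.5, 657 and 572.5 in HT-29, 966, 473 and 415 in HCT 116, and 2259, 2729.6 and 2896 in CCD 841 CoN. The cancer lines retained a clear level but lay below every CCD 841 CoN library, 5.12-fold lower on average (log2 difference -2.71, SE 0.24, adjusted p = 5.82e-08). ITGA1, a collagen receptor chain, measured 14.5, 20.3 and 13.6 CPM in LoVo, 31.2, 29.7 and 22.3 in LS1034, 123, 100.5 and 61.8 in HT-29, 3.18, 1.55 and 1.67 in HCT 116, and 438, 547 and 598 in CCD 841 CoN. The 4 lines spread widely, from HT-29 (5.55-fold below CCD 841 CoN) to HCT 116 (247-fold below). ITGA11, the chain of the fibroblast receptor for fibrillar collagen, measured 85.2, 138 and 174 CPM in CCD 841 CoN and at most 0.679 CPM in any cancer library, a difference of 865-fold (log2 difference -10.04, SE 0.54, adjusted p = 1.57e-10). ITGA2, the collagen receptor chain that epithelia also make, measured 98.8, 74.02 and 64.8 CPM in LoVo, 37.02, 32.1 and 20.01 in LS1034, 83.4, 70.3 and 24.5 in HT-29, 62.7, 40.5 and 20.1 in HCT 116, and 83.4, 153 and 144 in CCD 841 CoN. LoVo overlapped with CCD 841 CoN and was not called (log2 difference -0.995, SE 0.44, adjusted p = 0.066), although it was without CCD 841 CoN library 1 (-1.22, adjusted p = 0.0490) with the replicate block (-1.10, 0.0164), with DESeq2 (-1.16, 0.0274) or its size factors (-1.16, 0.0357), and with only the compared groups (-1.10, 0.00907). LS1034 and HCT 116 were lower by 4.27-fold and 3.08-fold. HT-29 was lower by 2.14-fold, a call lost without HT-29 library 3 (log2 difference -0.99) or CCD 841 CoN library 2 or 3 (adjusted p = 0.0639 and 0.0531) and with scaling by library size (0.0501).

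ITGA5, the alpha chain of the main fibronectin receptor, measured 5.64, 9.61 and 15.8 CPM in LoVo, 6.95, 4.66 and 2.02 in LS1034, 0.0348, 5.37 and 0.278 in HT-29, 50.9, 84.4 and 93.3 in HCT 116, and 419, 540.5 and 578 in CCD 841 CoN. All cancer libraries lay below CCD 841 CoN, and HCT 116 kept more than the other 3 lines, 6.72-fold below CCD 841 CoN (log2 difference -3.07, SE 0.82, adjusted p = 0.00511) where HT-29 was 270.3-fold below. ITGA8, a mesenchymal partner of beta1 that binds nephronectin, measured 389, 396 and 423 CPM in CCD 841 CoN and at most 0.679 CPM in the cancer libraries, 2115-fold lower (log2 difference -11.54, SE 0.39, adjusted p = 1.58e-12). ITGA4, a receptor chain for fibronectin and VCAM1, was low throughout, with 3.33, 12.1 and 11.04 CPM in CCD 841 CoN and at most 0.437 CPM in the cancer lines (log2 difference -6.57, SE 0.60, adjusted p = 9.16e-08).

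The alphaV receptors, which bind vitronectin and latent TGF-beta, differed chain by chain. ITGAV itself measured 103, 77.6 and 55.01 CPM in LoVo, 72.3, 77.4 and 41.5 in LS1034, 134, 163 and 76.02 in HT-29, 145, 102 and 77.3 in HCT 116, and 174, 167.5 and 189 in CCD 841 CoN. Its mean CPM was 1.89-fold lower over the 4 lines, and the fitted log2 difference was -1.26 (SE 0.24, adjusted p = 0.000264). ITGAV fell short of the required size with scaling by library size only (-0.97). In HT-29 it was not called, and the HCT 116 call ended without HCT 116 library 3 (-0.82) or CCD 841 CoN library 3 (-0.98) and with scaling by library size (-0.71). ITGB3, whose product forms the vitronectin receptor with alphaV, measured 48.8, 75.2 and 78.9 CPM in CCD 841 CoN and at most 0.561 CPM in the cancer libraries (529-fold, log2 difference -9.78, SE 0.45, adjusted p = 2.70e-11). ITGB5 measured 89.9, 109 and 95.9 CPM in LoVo, 169.7, 129.6 and 125 in LS1034, 518, 534 and 514.5 in HT-29, 101, 275 and 148.5 in HCT 116, and 624, 836 and 854 in CCD 841 CoN. HT-29 came close to CCD 841 CoN, below its 3 libraries but without a call (log2 difference -0.81), and the other 3 lines were lower by 7.84-fold, 5.45-fold and 4.41-fold in the order LoVo, LS1034 and HCT 116.

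ITGA9, a receptor chain for tenascin and osteopontin, was found mainly in 2 cancer lines, and measured 11.8, 18.9 and 4.305 CPM in LoVo, 15.9, 53.5 and 9.78 in LS1034, 0.487, 0.722 and 0 in HT-29, 1.48, 1.796 and 1.02 in HCT 116, and 0.284, 0.514 and 0.103 in CCD 841 CoN. LoVo and LS1034 were higher than CCD 841 CoN, by 38.9-fold and 87.8-fold (adjusted p = 0.000217 and 3.59e-05). HT-29 overlapped with CCD 841 CoN, and HCT 116 did not overlap but was not called (log2 difference 1.90, SE 0.85, adjusted p = 0.0727), although it was with the replicate block (2.12, adjusted p = 0.00683), with scaling by library size (2.21, 0.0449) and with only the compared groups (1.83, 0.0429). ITGAE, the chain of the E-cadherin receptor of intraepithelial lymphocytes, measured 21.3, 29.6 and 31.01 CPM in LoVo, 20.03, 23.1 and 27.02 in LS1034, 30.2, 31.4 and 52.04 in HT-29, 65.03, 58.5 and 71.7 in HCT 116, and 71.4, 52.5 and 55.3 in CCD 841 CoN. LoVo and LS1034 were lower, by 2.19-fold and 2.56-fold, and HCT 116 overlapped with CCD 841 CoN. Over the 4 lines the ITGAE difference (log2 difference -1.04, SE 0.21, adjusted p = 0.000528) fell short of the required size without CCD 841 CoN library 1 (-0.88) and with scaling by library size (-0.76). ITGA7, the muscle laminin receptor chain, reached at most 11.8 CPM and was called higher in LoVo, LS1034 and HCT 116 (adjusted p = 0.0236, 0.00368 and 0.0212). The LoVo and HCT 116 calls for ITGA7 were lost without CCD 841 CoN library 1 or 2 (adjusted p 0.0625 to 0.0706), and the LoVo call also without LoVo library 2 (0.0866). ITGA10, a cartilage collagen receptor chain, stayed at or under 1.89 CPM. Its call over the 4 lines (adjusted p = 0.0413) was lost without any 1 of CCD 841 CoN libraries 2 and 3, LoVo 1 and 2, LS1034 1 and 3, HT-29 1 or HCT 116 1 and 3 (adjusted p up to 0.177) and with scaling by library size (0.0864). No single line was called, but LS1034 was with DESeq2 (0.0452), the replicate block (0.0371), only the compared groups (0.0430) or without LS1034 library 2 (0.0240), and HT-29 with only the compared groups (0.0413).

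Most chains of blood cells were at or near 0. ITGB2, the shared beta chain of leukocyte integrins, was found in CCD 841 CoN, at 9.903, 14.9 and 13.1 CPM against at most 0.322 CPM in the cancer libraries (153-fold, log2 difference -7.41, SE 0.63, adjusted p = 3.96e-08). Its alpha partners ITGAL, ITGAM, ITGAX and ITGAD had no count in CCD 841 CoN, where 3 counts would be 0.0652 CPM over the 3 libraries, and at most 0.999 CPM elsewhere. Of 9 leukocyte markers in the table, PTPRC, CD8A and LCP1 were among those at 0 in CCD 841 CoN, where the list summed to 19.0 to 59.5 CPM. Most of that was CD14, a marker of monocytes, at a mean of 35.8 CPM in CCD 841 CoN and 0.0134 to 5.83 CPM in the cancer lines (log2 difference -7.53, adjusted p = 2.92e-09), and CD4 measured 4.85 CPM against 0.0805 to 2.10 CPM (-4.40, adjusted p = 4.20e-05). CD14 and CD4 therefore moved in the same direction as ITGB2, but of the 5 tested genes of the list 2 were higher and 2 lower. CORO1A measured a mean of 35.6 CPM in LS1034 and 2.38 to 4.45 CPM in the other cancer lines, against 3.23 CPM in CCD 841 CoN. LCP1 measured a mean of 7.48 CPM in LS1034. The list summed to 1.10 to 71.3 CPM over the cancer libraries, the highest in LS1034, and the part of other cells in the ITGB2 level was not tested. ITGAM was called higher in HT-29 and HCT 116 (adjusted p = 0.0184 and 0.0335), and ITGAX in LS1034 (0.642, 0.999 and 0.672 CPM, at least 11.8-fold, adjusted p = 0.0109). The ITGAM calls rest on levels under 0.77 CPM. In HT-29 it was lost without CCD 841 CoN library 1 (adjusted p = 0.0679), and in HCT 116 without HCT 116 library 1 or 2 or any 1 CCD 841 CoN library (0.0516 to 0.105) and with DESeq2 (0.0692). Over the 4 lines the ITGAM call (adjusted p = 0.0392) was lost without LoVo, LS1034, HT-29 or HCT 116 library 1 or 2 or without any 1 CCD 841 CoN library (0.0517 to 0.128) and with DESeq2 (0.0673).

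ITGA2B, the alpha chain of the platelet fibrinogen receptor, had 1 count in CCD 841 CoN and measured 0.534, 1.01 and 1.12 CPM in LoVo, 0.0584, 0.0833 and 0 in LS1034, 0.0696, 0.160 and 0 in HT-29, and 1.24, 1.84 and 2.31 in HCT 116. LoVo and HCT 116 were called higher (adjusted p = 0.0042 and 0.00087), with ratios of 36.3 and 78.8 whose 95% counting intervals run from 6.26 to 1456 and from 13.9 to 3138. The 5 platelet markers in the table summed to 1.36 to 4.70 CPM in LoVo and 0.0925 to 0.777 CPM in HCT 116, where PF4, PPBP and TREML1 were at 0. Over the 4 lines the ITGA2B call (adjusted p = 0.0295) was lost without LS1034 library 1 or 2, HT-29 library 2, or CCD 841 CoN library 1 or 3 (0.0529 to 0.162).

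The cancer lines also differed among themselves. The number of members called was 8 between LoVo and LS1034 (26% of all genes tested were called), 14 between LoVo and HT-29 (27.2%), 17 between LoVo and HCT 116 (22.1%), 11 between LS1034 and HT-29 (22.6%), 14 between LS1034 and HCT 116 (32.9%) and 15 between HT-29 and HCT 116 (30.6%). These pairs share libraries. The LoVo and LS1034 count is a share of 22.2% of the 36 tested members, below that of all genes, and the LoVo and HCT 116 count one of 47.2%. Without HT-29 library 1, 9 members in place of 14 were called between LoVo and HT-29.

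LAMB3, LAMA3, ITGB6, ITGB4 and ITGA6 were called lower in HCT 116 than in LoVo, LS1034 and HT-29, and so were ITGB7 and the collagen receptor chain ITGA1. ITGA2 was called in none of these 3 pairs, ITGA3 was higher in HCT 116 than in LoVo, and LAMA5 was lower in HCT 116 than in HT-29 only. LS1034 exceeded HCT 116 by 10.1-fold in LAMB3 (log2 difference 3.42, SE 0.54, adjusted p = 0.000124) and by 9.65-fold in LAMA3 (log2 difference 3.32, SE 0.48, adjusted p = 5.86e-05). For ITGB6 it was 129.5-fold (log2 difference 7.03, SE 0.54, adjusted p = 1.01e-07), and HT-29 exceeded HCT 116 about as much, by 128-fold. ITGB4 was 3.35-fold, 2.44-fold and 3.21-fold higher in LoVo, LS1034 and HT-29 than in HCT 116 (adjusted p = 0.000861, 0.00364 and 0.000633). For ITGA6 the same 3 ratios were 2.83, 3.08 and 2.54 (adjusted p = 0.00315, 0.000936 and 0.00352). The summed epithelial markers were also lowest in HCT 116, as given above, and their part in these differences was not tested. HCT 116 was the high line for the fibronectin receptor chain ITGA5, 40.2-fold above HT-29 (as HT-29 minus HCT 116, log2 difference -5.23, SE 0.93, adjusted p = 0.000436) and 16.8-fold above LS1034. Its ITGA5 level was 7.36-fold above LoVo, a call lost without LoVo library 1 or 2 (adjusted p = 0.0733 and 0.0509). LAMC3 was higher in HCT 116 than in LoVo, LS1034 and HT-29 (adjusted p = 0.00283, 0.00239 and 0.0211), the last lost without HT-29 library 1 or 3 or HCT 116 library 3 (0.0546 to 0.0587).

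HT-29 stood at the top for several chains. ITGA1 was 44.6-fold above HCT 116 (log2 difference 5.50, SE 0.37, adjusted p = 3.22e-08), and ITGB5 exceeded LoVo by 5.31-fold (log2 difference of LoVo from HT-29 -2.50, SE 0.29, adjusted p = 1.28e-05). LAMA5 was 5.32-fold above LS1034 (adjusted p = 0.00102), and ITGB8 was 6.45-fold above HCT 116 (adjusted p = 0.00153). LoVo was set apart by LAMA4, which was 24.2-fold, 97.99-fold and 20.2-fold above LS1034, HT-29 and HCT 116 (adjusted p = 0.000727, 0.000138 and 0.00116). LoVo also held the least ITGB1, with a mean 2.01-fold, 2.41-fold and 2.34-fold below the other 3 in the same order. Of these ITGB1 calls, that against LS1034 was lost without LoVo library 2 or 3 or LS1034 library 1 or 3 (adjusted p 0.0569 to 0.0961), and that against HCT 116 without LoVo library 2 or 3 or HCT 116 library 1 (0.0532 to 0.0837). LS1034 held the least LAMB1, 6.69-fold below LoVo (adjusted p = 1.96e-05), 5.34-fold below HT-29 and 2.701-fold below HCT 116. LAMB1 was higher in HT-29 than in HCT 116 by a log2 difference of 1.03, which fell under 1 with the replicate block (0.97) or scaling by library size (0.98), without HT-29 library 1 or 2 or HCT 116 library 2 (0.81 to 0.88), and lost its p without HCT 116 library 1 (0.0519). LAMA3 was higher in LS1034 than in HT-29 (log2 difference 1.37, SE 0.45, adjusted p = 0.0342), but not without LS1034 library 3, which held 129 CPM (log2 difference 0.64), without HT-29 library 1 or 3 (adjusted p = 0.0600 and 0.131), or with a replicate block over the cancer lines alone (0.0549) or only the compared groups (0.0645).

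The genes that work with integrins and laminins were described from 4 lists, over the 4 cancer lines against CCD 841 CoN. These lists were chosen with earlier results of these data known. Of 31 tested genes of integrin adaptors and focal adhesion, 3 were higher and 19 lower (median log2 difference -1.84). Over all genes tested, 24.8% were higher and 22.3% lower, with a median of 0.22. The kindlin of epithelia, FERMT1, was higher (7.35, adjusted p = 2.92e-09) and that of mesenchymal cells, FERMT2, was lower (-4.74, adjusted p = 6.60e-07). The epithelial tensin TNS4, with no count in CCD 841 CoN, and the kinase SRC were also higher (SRC 1.52). Caveolin-1 (CAV1; -5.52), LIMS2 (-5.20) and the actinin ACTN1 (-3.35) were lower, although the LIMS2 mean of HT-29 was 121 CPM against 67.3 CPM in CCD 841 CoN. Of 9 tested genes of hemidesmosomes and other laminin receptors, 4 were higher and 1 lower (median 0.20). COL17A1, a collagen of hemidesmosomes, was higher (7.09, adjusted p = 1.91e-07), at means of 77.1 to 89.1 CPM in LoVo, LS1034 and HT-29 and of 0.983 CPM in HCT 116. BCAM and RPSA, which bind laminin, and the syndecan SDC1 were higher by 2.55, 1.17 and 1.33. BCAM was found mainly in HT-29, at a mean of 37.7 CPM, against 1.42 to 4.99 CPM in LoVo, LS1034 and HCT 116 and 0.778 CPM in CCD 841 CoN. The tetraspanin CD151 was the 1 lower gene (-1.79, adjusted p = 1.94e-06). In HT-29 CD151 was not called lower, at a mean of 424 CPM against 625 CPM in CCD 841 CoN.

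Of 16 tested basement membrane partners of laminin, 2 were higher and 12 lower (median -6.43). NID1, the nidogen that links laminin to collagen IV, was lower (-10.67, adjusted p = 1.07e-11), and so was COL4A1 (-9.42, adjusted p = 9.72e-11), at a mean of 662 CPM in CCD 841 CoN and 42.3 CPM in LS1034, the highest of the cancer lines. EFEMP1 (-13.54) and SPARC (-13.51) were the lowest of the list. COL4A3 and COL4A4 were the 2 higher genes, and each had 1 count in CCD 841 CoN. Their means were highest in HCT 116 (3.88 and 7.22 CPM) and next in LoVo (0.692 and 5.73 CPM). LS1034 and HT-29 held only 0.168 to 0.381 CPM of either gene. Some single lines lay above CCD 841 CoN for other genes of the list. AGRN had a mean of 255 CPM in HT-29, 8.82 to 18.7 CPM in the other cancer lines and 22.3 CPM in CCD 841 CoN. HSPG2 had means of 96.7 CPM in HT-29 and 74.3 CPM in LS1034, against 17.6 CPM in CCD 841 CoN. In LoVo and HCT 116 the HSPG2 means were 5.14 and 8.08 CPM. Of 21 tested integrin ligands other than laminins, 2 were higher and 18 lower (median -6.26). The higher ligands were E-cadherin (CDH1; 10.26, adjusted p = 1.48e-10) and nephronectin (NPNT), which had no count in CCD 841 CoN. The lowest were the fibrillar collagens COL1A2 (-13.20), COL3A1 (-12.15) and COL1A1 (-12.13), and EDIL3 (-12.47). CDH1 and the 3 collagens also stand in the epithelial and fibroblast marker lists.

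In the mixtures, 33 of the 38 members had enough counts to be tested, and a gene was called at an adjusted p below 0.05 in a fit that kept the cancer line as a term. From 0.1% to 50% cancer RNA, 10 members rose and 16 fell (30.1% and 24.1% of the 13212 genes tested). From 0.1% to 10%, 5 rose and 3 fell (6.21% and 1.18%), and from 0.1% to 1%, 2 rose and none fell (0.939% and 0%). All 3 comparisons share the 0.1% mixtures. Each percentage holds 1 mixture of each cancer line, so the 4 different lines stand in for replicates. The p-values here therefore measure how evenly a change ran over the 4 lines, with no repeat of any mixture. By edgeR's quasi-likelihood test at 1%, 5 members were higher and none lower at an unadjusted p below 0.05, and DESeq2 called 4, of which the added ITGB8 and LAMA1 were higher.

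ITGB4, the hemidesmosome receptor chain, was among the members that rose at 1%. ITGB4, in the order LoVo, LS1034, HT-29 and HCT 116, measured 2.08, 0.677, 1.15 and 0.612 CPM at 0.1%, 4.75, 7.04, 4.43 and 2.28 at 1%, 73.2, 53.9, 50.3 and 14.4 at 10% and 373.5, 185.5, 159 and 73.5 at 50%. Already at 1% it did not overlap with the 0.1% mixtures (log2 difference 2.08, SE 0.30, adjusted p = 0.00246). LAMB3 in the same order measured 2.11, 2.03, 2.98 and 0.994 CPM at 0.1%, 6.88, 10.1, 1.64 and 1.68 at 1%, 66.8, 86.2, 12.1 and 8.03 at 10% and 294, 344, 40.3 and 30.1 at 50%, and was called from 10% (log2 difference 3.91, SE 0.51, adjusted p = 0.000198). The ITGB4 call at 1% did not hold with only the compared mixtures fitted (adjusted p = 0.0664) or with the cancer line left out (adjusted p = 1).

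ITGB8 had no count in the 0.1% mixtures and measured 0.899, 1.69, 6.04 and 0.130 CPM at 10% and 1.49, 5.89, 15.4 and 3.46 at 50%, with HT-29 the highest. ITGB6 measured 2.11, 8.13, 5.11 and 0 CPM at 10% and 5.06, 29.7, 25.00 and 0.346 at 50%, so that it marked the LS1034 and HT-29 mixtures and hardly the HCT 116 ones. ITGA6, present in CCD 841 CoN too, measured 34.6, 43.6, 42.7 and 44.97 CPM at 0.1% and 221, 296, 184 and 79.1 at 50%, a rise of 4.701-fold (log2 difference 1.997, SE 0.26, adjusted p = 2.47e-05). At 50%, ITGB7, LAMA2, LAMA3 and LAMA5 had also risen. The LAMA3 call (adjusted p = 0.0363) was lost without the LoVo or LS1034 mixture at either percentage or the HT-29 mixture at 0.1% (0.0510 to 0.141), and the ITGB7 call (adjusted p = 0.0227) without the LoVo or LS1034 mixture at either percentage (0.0524 to 0.0862).

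Of the 17 members with a mean of at least 10 CPM in CCD 841 CoN, 15 fell as the cancer share went from 0.1% to 50%, ITGA6 rose as given above, and ITGA3 was not called. ITGA3 measured 110.0, 108, 97.9 and 115 CPM at 0.1% and 77.9, 90.96, 117 and 128 at 50% (log2 difference -0.19, SE 0.12, adjusted p = 0.185). ITGB1 measured 2245, 2378, 2398 and 2380.0 CPM at 0.1% and 1404, 1283, 1228 and 1388 at 50% (log2 difference -0.95, SE 0.04, adjusted p = 1.49e-09). ITGA8, all but absent from the cancer lines, measured 376, 383, 365 and 349 CPM at 0.1% and 227, 180.1, 146 and 202 at 50%, 1.95-fold lower. ITGA1, ITGA11, ITGB3 and LAMB1 fell by 2.08-fold, 2.15-fold, 1.97-fold and 1.98-fold. At 10%, ITGA1, ITGB1 and LAMB1 had fallen, by log2 differences of -0.24, -0.20 and -0.26 (adjusted p = 0.023, 0.00917 and 0.0275). These small falls were not stable: ITGA1 lost its call without any 1 of the 8 mixtures compared (adjusted p up to 0.145), LAMB1 without any 1 of them other than the LoVo mixture at 0.1% (up to 0.160), and ITGB1 without the LoVo or HCT 116 mixture at 10% or the LS1034 or HT-29 mixture at 0.1% (up to 0.0801). Scaling by library size ended all 3 of these calls (adjusted p 0.0668 to 0.0999). Among the falls at 50%, those of LAMA4 and ITGA2 were lost in several such repeats: LAMA4 without any 1 of the mixtures of LS1034, HT-29 or HCT 116 (adjusted p up to 0.0968), and ITGA2 without the HT-29 mixture at either percentage or the HCT 116 mixture at 0.1% (up to 0.0642).

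**Figure D4:**
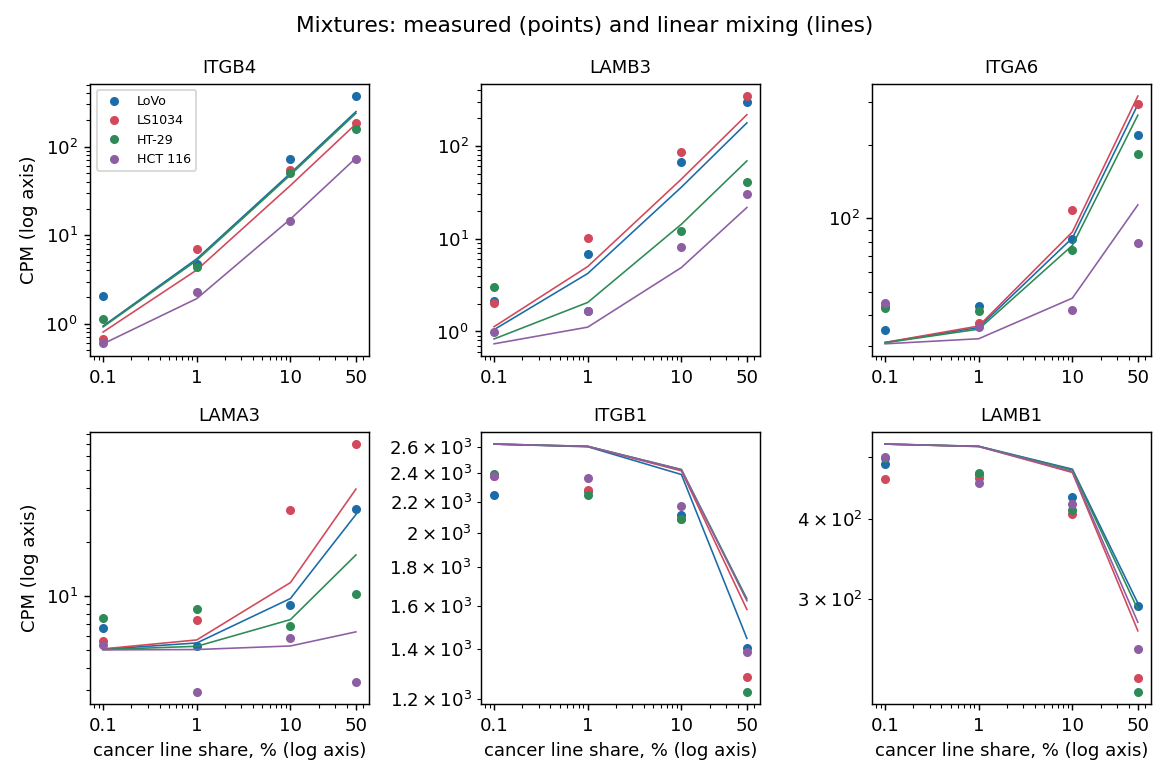
CPM in the 16 mixtures (points, 1 per cancer line and percentage) and the level that linear mixing of the mean unmixed CPM gives (lines), both axes logarithmic, for ITGB4, LAMB3, ITGA6, LAMA3, ITGB1 and LAMB1. The ITGB1 points (2245 to 2398 CPM at 0.1%) lie below their lines at every percentage, and LAMB3 of LoVo and LS1034 lies above.

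The measured level in each mixture was set beside the level that linear mixing of the unmixed lines gives, over members with an expected level of at least 10 CPM. The median ratio of measured to expected was 0.83 to 0.91 in the 4 mixtures at 0.1%, 0.83 to 0.87 at 1%, 0.84 to 0.89 at 10% and 0.68 to 0.99 at 50%. Over all genes with that expected level, the same median was 1.01 at 0.1% in all 4 mixtures and 0.973 to 0.985 at 50%. The members lowest against expectation at 0.1% were LAMA4, at 0.36 to 0.49 of it, and ITGA2, at 0.56 to 0.64.

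The ratios at 0.1% to 10% moved with the choice of CCD 841 CoN library as the reference. For LAMA4 the 0.1% mixtures measured 15.4, 17.8, 13.1 and 17.2 CPM, beside 16.3, 38.9 and 53.9 CPM in CCD 841 CoN libraries 1, 2 and 3, and for ITGA2 81.6, 71.2, 71.3 and 75.2 CPM beside 83.4, 153 and 144. Of the 17 members with a mean of at least 10 CPM in CCD 841 CoN, 15 had their mean 0.1% level nearest to library 1, 1 to library 2 and 1 to library 3. Over all 8721 genes at that level in CCD 841 CoN, 60.9% were nearest to library 1, 19.9% to library 2 and 19.2% to library 3. With library 1 alone as the reference, an alternative chosen after seeing the data, the mean over the 4 mixtures of the median ratio was 1.02 at 0.1%, 1.02 at 1%, 0.999 at 10% and 0.96 at 50%, against 0.87, 0.86, 0.87 and 0.85 with all 3. The 4 mixtures at 50% still differed with library 1 as the reference, with a median ratio of 0.749 in HT-29, 1.115 in LoVo, 0.974 in LS1034 and 0.986 in HCT 116.

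**Figure D5:**
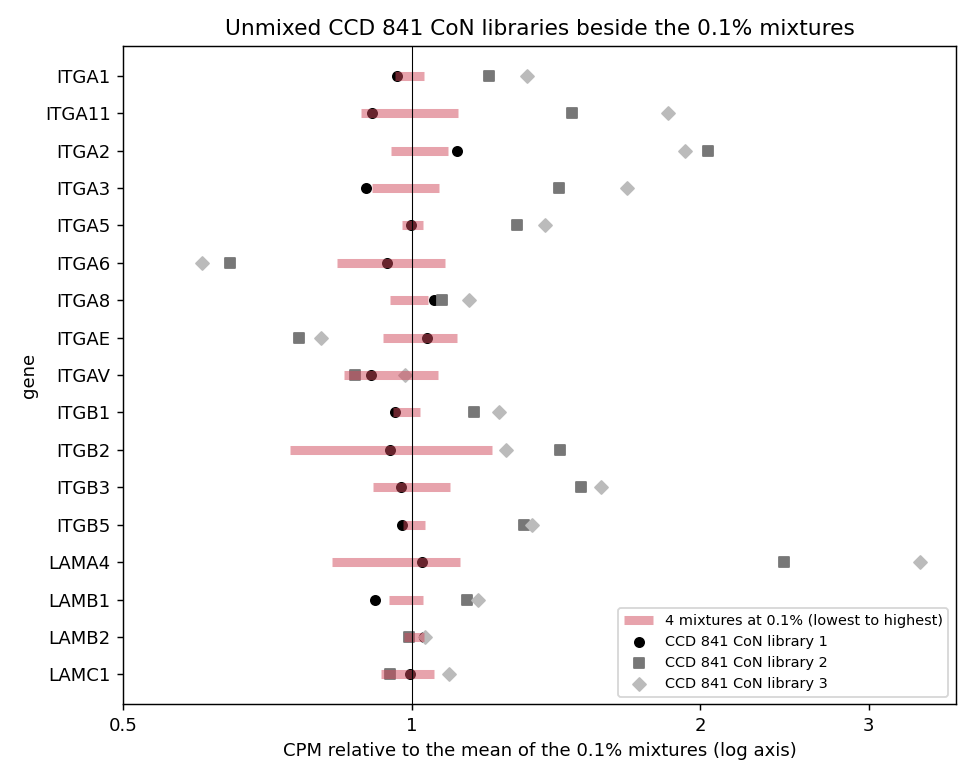
CPM of the 3 unmixed CCD 841 CoN libraries (symbols) and the range of the 4 mixtures at 0.1% cancer RNA (bars), both relative to the mean of those mixtures on a log axis, for the 17 members with at least 10 CPM in CCD 841 CoN. Library 1 lies in or beside the bar for most genes, while libraries 2 and 3 lie to the right for LAMA4, ITGA2, ITGA3 and ITGA11 and to the left for ITGA6 and ITGAE.

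Some cancer-line chains departed from the linear level in single lines. LAMB3 was 1.86 and 1.97 times the expected level in the LoVo and LS1034 mixtures at 10%, and 1.67 and 1.59 times at 50%, where HT-29 had 0.59 times. LAMA3 in the LS1034 mixtures was 2.53 times the expected level at 10% and 1.78 times at 50%. The unmixed LS1034 libraries themselves ranged from 43.7 to 129 CPM of LAMA3 and from 300.4 to 662 CPM of LAMB3, and there is 1 mixture for each line and percentage, so these ratios have no replicate.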

How the data were processed

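RNA of 5 unmixed colon cell lines (15 libraries) and of 16 mixtures was sequenced after ribosomal RNA removal with a stranded kit, per the labels' protocols. The authors deposited 1 table of raw counts per gene; STAR, featureCounts and hg19 are named in the submitters' processing notes, while versions, annotation and strand setting are not given in the sources used here. Reads of genes that overlap on opposite strands therefore may not be separable.

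CPM was computed from the deposited counts. Tests used edgeR 4.0.16 in R 4.3.3 (quasi-likelihood, TMM scaling, genes with low counts removed by group, Benjamini-Hochberg adjustment over all genes tested), with the 15 unmixed libraries in one fit and the 16 mixtures in another that has the cancer line as a term. The SE is the absolute log2 difference divided by the square root of the F statistic. Folds are ratios of mean CPM, which is scaled by library total alone. They therefore differ from the fitted log2 differences, which use TMM scaling and average the 4 lines on the log scale. Where a group had no count the fold is a bound set by 3 counts over that group, and where it had 1 to 3 counts it is a ratio of pooled counts with a 95% interval; bounds and intervals cover counting error only. The fits were also run on simulated counts in which few genes changed, equally up and down. That setting does not address scaling between lines that differ in many genes.

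Same-numbered libraries deviated together between cancer lines (correlations 0.166 to 0.541, 18 of 18 best with their own number) but not with CCD 841 CoN (-0.044 to 0.0226, 2 of 12), and the labels do not tie the numbers to a shared batch. Alternatives were other scalings, no low-count filter, DESeq2 1.42.0, a replicate block, only the compared groups, and leaving out each library. A block over the cancer lines alone and CCD 841 CoN library 1 as the sole reference for mixing were added after seeing the data. Members with a mean of at least 10 CPM in a line are given by library and the others by range; results that need a withheld gene are not reported here; of the pathway lists, up to 4 genes in each direction are named by size of change. The members and lists were chosen with earlier results of these data known. Figures were drawn with matplotlib 3.10.9 in Python 3.11.15, with 0.01 or 1 CPM added before logs.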

Additional observations from a re-analysis of the deposited data

Results flagged for a closer look

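In a group of 4 mixtures, 1 library was called far from the others where its gap to the nearest exceeded Dixon's 95% critical value of the range. Of 100 groups, of which those with no count were not examined, 9 had such a library, where replicates of 1 kind would give about 1 in 20 by chance. That rate does not carry over here, because the 4 mixtures of a group hold RNA of 4 different cancer lines. For ITGB5 at 50% the level that linear mixing gives was itself 647 CPM for HT-29 against 435 to 473 CPM for the others, and for ITGA9 at 10% it was 2.91 CPM for LS1034 against 0.311 to 1.44 CPM. At 0.1% cancer RNA the libraries were ITGA9 in HCT 116 (1.071 CPM, others 0.2751 to 0.3626) and ITGB1 in LoVo (2245 CPM, others 2378 to 2398). At 1% cancer RNA the libraries were ITGA3 in LoVo (92.2 CPM, others 112.8 to 115.7) and ITGB6 in HT-29 (1.094 CPM, others 0 to 0.1032). At 10% cancer RNA the libraries were ITGA2 in LoVo (97.69 CPM, others 74.45 to 77.4), ITGA9 in LS1034 (2.153 CPM, others 0.1939 to 0.2084), LAMA3 in LS1034 (30.07 CPM, others 5.829 to 8.953) and LAMB2 in HCT 116 (294.4 CPM, others 312.1 to 314.2). At 50% cancer RNA it was ITGB5 in HT-29 (542.3 CPM, others 367.8 to 387.8). Each is 1 mixture without a replicate.

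For 20 of 25 members described with at least 10 CPM in a line, the difference from CCD 841 CoN itself differed between cancer lines, by edgeR's test of the 2 lines against each other with adjusted p below 0.05 and a log2 difference of at least 1 in any of the 6 pairs. By the same rule 58.2% of the 11382 genes tested with that level in a line, and 57.7% of all 14452, were called in at least 1 pair. For each member, the pair of lines with the largest difference in size among those called is given, as the log2 difference of the first line from the second. For HT-29 against HCT 116 these were ITGA1 5.497, ITGA5 -5.23, ITGB6 7.034 and ITGB8 2.773. For LoVo against LS1034 these were ITGA2 1.379 and LAMB1 2.698, and the ITGA2 call was lost without LoVo library 1 or LS1034 library 2 or 3 (adjusted p = 0.107, 0.0583 and 0.116). For LoVo against HT-29 these were ITGA3 -2.264, ITGB1 -1.332, ITGB3 3.39, ITGB5 -2.497, LAMA4 6.378 and LAMB2 1.5. The ITGB3 call rests on 21, 12 and 0 counts in LoVo and 0, 2 and 0 counts in HT-29, and was lost without LoVo library 1 (adjusted p = 0.0847) or HT-29 library 1 (0.0871). For LS1034 against HCT 116 these were ITGA6 1.651, ITGAE -1.442, LAMA3 3.317 and LAMB3 3.42. For LS1034 against HT-29 these were ITGA9 5.829, LAMA2 3.402 and LAMA5 -2.438. For LoVo against HCT 116 it was 1.759 for ITGB4.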

How the results depend on the processing

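Of the 254 calls over the members and comparisons, 206 held under every alternative tried and 0 reversed direction. Between LoVo and HT-29, leaving out 1 library gave 9 to 14 members called, against 14, with 9 without HT-29 library 1. At 1% against 0.1%, 2 members were called, and the count was 4 with DESeq2, 0 with the cancer line left out of the fit (no replicate block) and 0 with only the compared mixtures. At 10% the 8 called became 5 with scaling by library size, 13 with only the compared mixtures and 5 to 7 without 1 mixture (5 without the LoVo or HCT 116 mixture at 10% or the HT-29 mixture at 0.1%). With the replicate block, LAMB1 between HT-29 and HCT 116 fell to 0.97 and ITGB7 in HCT 116 to an adjusted p of 0.0649. Over all genes, the 1% calls went from 124 to 418 with DESeq2, 6 without the line term and 23 with only the compared mixtures. The 10% calls went from 976 to 1589, 502 without the line term, and 639 and 644 without the HT-29 mixture at 0.1% and at 10%. The 50% calls went from 7160 to 4611 with only the compared mixtures. Scaling by library size moved the median of all genes by 0.29 in the 4 lines, 0.25 to 0.33 in single lines and 0.12 at 50%. The share of calls that were higher rose from 55.1% to 65.2% in LoVo and from 54.5% to 64.9% in HCT 116. At 10% it went from 84% to 97.2% with library size, 67.6% with DESeq2 and 62.8% with only the compared mixtures, and at 1% from 100% to 67.9% with DESeq2. The causes were not tested. Members under 1 CPM rest on few counts, and depth limits them most.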
